A study of Mus musculus with 16 samples.

Results

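The carnitine shuttle and the malonyl-CoA switch are described here through 10 genes, taken by symbol from a list of names and not by their values: Cpt1a, Cpt1b, Cpt1c, Cpt2, Slc25a20, Crat, Crot, Acaca, Acacb and Mlycd. The deposited table listed 45777 genes, of which 16209 had at least 1 read in every tumor and were tested, and all 10 genes were among them. The material was RNA of B16F10 tumors, an established mouse melanoma line of C57BL/6 origin, grown under the skin of the flank. The hosts were lean C57BL/6J mice and ob/ob mice, which lack leptin and become obese. Cells were injected when the mice were 6 weeks old. Tumors were taken before therapy, or after 5 injections of etoposide (ETS), a topoisomerase poison that breaks DNA, at 20 mg per kg, begun when tumors reached about 100 mm3. Each of the 4 groups held 4 tumors. The labels name the untreated groups only as ctrl, the study describes them as before chemotherapy, and the day they were taken is not given. Where elapsed time or tumor growth differed between ctrl and ETS tumors, these cannot be told apart from the drug in what is called the ETS effect. Obesity rested on a single genotype without leptin, the same cell line formed all tumors, and the labels do not say what the tumors before therapy received as a vehicle or whether each tumor came from a different mouse, so p-values measure only the spread between these samples.

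Long-chain fatty acids cannot cross the inner mitochondrial membrane as CoA esters. Carnitine palmitoyltransferase 1 on the outer membrane turns them into acylcarnitines, the translocase Slc25a20 carries these inwards in exchange for carnitine, and Cpt2 on the inner membrane turns them back into acyl-CoA for beta-oxidation. Malonyl-CoA, the product of acetyl-CoA carboxylase and the building block of fatty acid synthesis, blocks carnitine palmitoyltransferase 1, and malonyl-CoA decarboxylase (Mlycd) removes it, so that synthesis and oxidation are set against each other.

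In lean tumors 9 of the 10 genes passed the test after ETS, with 7 higher and 2 lower, and in obese tumors 6 of the 10 were higher and 0 lower by edgeR, with 0 lower also at an unadjusted p under 0.05 and by DESeq2. Cpt1c rose the most in both hosts, 3.92-fold in lean and 3.15-fold in obese tumors. Cpt1a, the broadly expressed liver form of the outer-membrane enzyme, rose 2.29-fold in obese tumors, and it was the only 1 of the 10 whose response to ETS passed the test of a difference between hosts. All adjusted p-values below come from edgeR's quasi-likelihood test on the counts of all 16 tumors, with Benjamini-Hochberg adjustment over the 16209 tested genes, and a gene is said to rise or fall at an adjusted p under 0.05. Among all tested genes, 21% were called higher and 22.8% lower in lean tumors after ETS, and 21.2% higher and 19% lower in obese tumors. For the difference between hosts the shares were 6.35% higher and 10.1% lower. The median log2 difference was 0.55 over the 10 genes and -0.015 over all tested genes in lean tumors, and 0.41 against 0.0066 in obese tumors. The count of 9 in lean tumors was 1, Cpt1c, without the 5 tumors that held skeletal muscle RNA, and the count of 6 in obese tumors was 2, Cpt1a and Cpt1c, without the 4 tumors that held adipocyte RNA. These fits had fewer tumors, and over all tested genes their calls fell too, from 7099 to 1722 in lean and from 6517 to 3266 in obese tumors. The lean differences without the tumors with muscle RNA were -0.47 for Acaca, 0.73 for Acacb, 0.43 for Crot, 0.43 for Slc25a20, 0.44 for Crat, 0.36 for Cpt2 and 0.39 for Mlycd, and -2.69 for Cpt1b.

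The libraries held between 47199949 and 61655287 counted reads, and log2 values of tumors of a group correlated at 0.970 to 0.992. The summed level of 6 melanocyte markers was 11798 to 13815 TPM (a level scaled for transcript length and library) in lean tumors before therapy and 10392 to 12895 TPM after ETS. In obese tumors it was 6440 to 9359 and 6568 to 11541 TPM. Before therapy 2 of the 6 were lower in obese than in lean tumors, and 2 of the 6 rose after ETS in each host. Other cells differed with the groups too. The summed level of 8 macrophage markers was 751 to 2006 TPM in lean tumors before therapy and 69.1 to 487 TPM after ETS, where 6 of the 8 fell, and it was 60.5 to 388 TPM in obese tumors before therapy and 464 to 1508 TPM after ETS, where 6 of the 8 rose. For 5 fibroblast markers the ranges were 147 to 407 and 19.0 to 118 TPM in lean tumors, and 22.2 to 133 and 148 to 1184 TPM in obese tumors, with 2 of 5 lower in lean and 5 of 5 higher in obese tumors. The 6 T and NK cell markers summed to 44.3 to 83.6 TPM in lean tumors before therapy and to 4.0 TPM or less in each other tumor. Endothelial markers, 4 in number, ranged from 43.6 to 61.7 and 27.2 to 35.0 TPM in lean tumors and from 19.2 to 38.3 and 37.5 to 84.5 TPM in obese tumors. Neuron markers summed to at most 6.25 TPM and brown adipocyte markers to at most 0.314 TPM in any tumor. The part of these cells in the values of the shuttle genes was not tested, and in bulk RNA fewer cells of a type and less RNA per cell cannot be told apart.

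RNA of the host's own tissue was also found in single tumors. Acta1, the actin of skeletal muscle, stood at 70.4 and 19.4 TPM in lean tumors 2 and 4 before therapy, at 108 and 81.1 TPM in lean tumors 1 and 2 after ETS and at 162 TPM in obese tumor 2 after ETS, and at 0.616 TPM or less in the other 11 tumors. All 20 skeletal muscle markers together summed to 27.3 to 393 and 69.6 to 474 TPM in lean tumors before and after ETS, and to 43.4 to 60.0 and 52.6 to 654 TPM in obese tumors, with 6 of the 20 at 0 in all obese tumors before therapy. Adipoq, the hormone of fat cells, stood at 8.75 TPM in obese tumor 2 before therapy and at 6.77, 7.51 and 8.95 TPM in obese tumors 1, 2 and 3 after ETS, and at 0.945 TPM or less in the other 12. The 8 adipocyte markers summed to 34.7 to 85.7 and 19.5 to 42.3 TPM in lean tumors, and to 38.8 to 243 and 192 to 571 TPM in obese tumors. Leaving out the 5 tumors with muscle RNA left 2 lean tumors in each group, and leaving out the 4 with adipocyte RNA left obese tumor 4 as the only obese tumor after ETS, which the fit then assumed to vary like the other groups. That tumor also held the highest fibroblast sum, 1184 TPM, and the summed macrophage level of 1508 TPM.

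The windows before the RefSeq starts of Cpt1a and Cpt1c are shown because Cpt1c rose most in both hosts and Cpt1a was the gene with a difference between hosts. Of the 10 genes, 8 matched the RefSeq promoter table of build GRCm38.p6. Cpt1b and Crat did not. Each window holds 250 bases, written 5′ to 3′ on the strand of the gene, at chr19:3323051-3323300 on the plus strand for Cpt1a and at chr7:44974852-44975101 on the minus strand for Cpt1c. The start used is that of 1 transcript: the gene span of Cpt1a given further on begins upstream of its window, which therefore lies inside the span, and the window of Cpt1c overlaps the edge of its span, so that other transcripts may start elsewhere. Capitals mark motifs found on either strand.
Cpt1a: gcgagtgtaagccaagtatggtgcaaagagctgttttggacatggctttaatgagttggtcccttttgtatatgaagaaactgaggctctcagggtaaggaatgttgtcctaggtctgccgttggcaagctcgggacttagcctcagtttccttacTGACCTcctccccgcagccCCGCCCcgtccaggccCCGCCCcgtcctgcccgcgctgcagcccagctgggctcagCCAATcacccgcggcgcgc
Cpt1c: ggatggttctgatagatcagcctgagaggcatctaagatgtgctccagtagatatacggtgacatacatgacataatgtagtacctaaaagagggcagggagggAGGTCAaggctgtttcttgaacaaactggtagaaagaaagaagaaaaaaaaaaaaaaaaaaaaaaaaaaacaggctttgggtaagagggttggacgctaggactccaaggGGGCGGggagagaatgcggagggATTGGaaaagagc

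Both windows held the GC box GGGCGG, 2 copies before Cpt1a and 1 before Cpt1c, a single CCAAT box and a single AGGTCA, the core of many nuclear receptor sites. The marked motifs did not overlap each other. Of 32851 windows of this length, 32.7% held a GC box, 33.9% a CCAAT box and 14.02% AGGTCA. The E-box CACGTG, the sterol regulatory element TCACNCCAC, the TATA box TATAAA and the p53 motif were found in neither window, and 6.02%, 1.05%, 12.4% and 7.13% of all windows held them. GC content was 59.6% before Cpt1a and 44% before Cpt1c, against a median of 52.4% over all windows. A match of letters is a description and not a binding site.

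Per length and averaged over all 16 tumors, Slc25a20 was the highest of the 10, with a mean of 43.1 TPM and a range of 32.9 to 56.9 TPM. Cpt1c followed at 32.2 TPM (12.99 to 56.7), then Crot at 30.8 TPM (23.8 to 35.6), Cpt2 at 27.9 TPM (22.8 to 36.9), Crat at 26.6 TPM (16.8 to 35.4) and Cpt1a at 26.04 TPM (14.1 to 44.9). These ranges, which pool the groups, overlapped. Within each of the 16 tumors, Slc25a20 stood above Crot, Cpt2, Crat and Cpt1a. Cpt1c stood above Slc25a20 in some tumors after ETS. The pooled ranges do not separate the order of the rest. Acaca at 17.6 TPM (10.1 to 29.3) and Mlycd at 16.8 TPM (12.2 to 20.4) had lower means with ranges that reached into the others, and Acacb at 5.02 TPM (2.70 to 9.76) and Cpt1b at 1.62 TPM (0.0512 to 4.61) were the lowest. The order changed with the group. Cpt1c averaged 50.7 ± 4.15 TPM (SD, n = 4) in lean tumors after ETS, against 44.2 ± 5.51 TPM for Slc25a20, and before therapy it averaged 16.3 TPM in lean and 15.8 TPM in obese tumors, beside 16.4 and 14.4 TPM for Mlycd. Acaca averaged 25.5 ± 4.13 TPM in lean tumors before therapy, within the ranges of Cpt2 and Cpt1a there and above the highest Crat value of 24.9 TPM. After ETS it averaged 13.9 TPM in lean tumors. Cpt1b, the muscle form, was a rare transcript beside Cpt1a and Cpt1c.

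**Figure D1:**
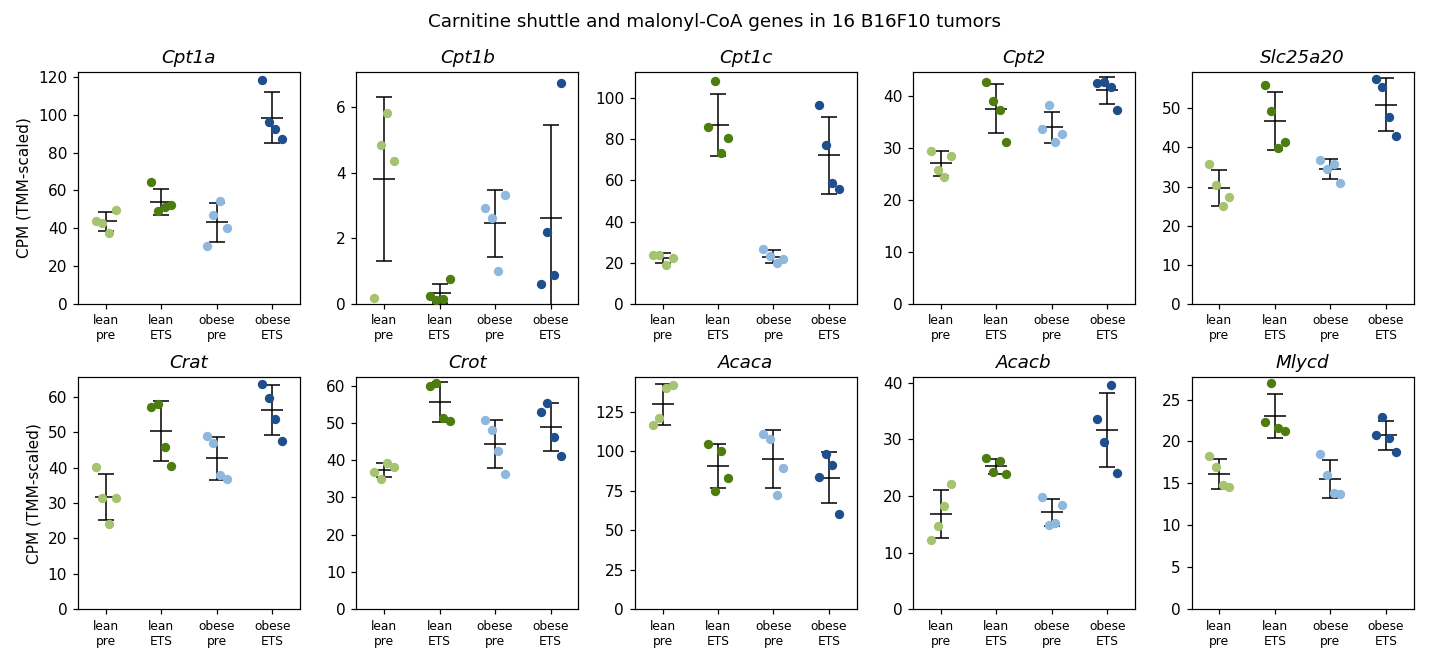
Level of each of the 10 genes (CPM, counts scaled by library size and TMM, y axis) in each tumor (points) of the 4 groups (x axis), with the mean and SD of 4 tumors as black lines; the lower SD line of Cpt1b in obese tumors after ETS runs below the axis. Cpt1c after ETS lies at 55.8 CPM or higher in all tumors and before therapy at 26.9 CPM or lower, whereas Cpt1a separates from the tumors before therapy only after ETS in obese mice.

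Cpt1a encodes the form of the outer-membrane enzyme that limits entry of long-chain fatty acids in most tissues (chr19:3322326-3385735, GRCm38). In CPM (counts scaled for library size but not for length), it measured 44.0, 42.9, 37.5 and 49.9 in the lean tumors before therapy and 64.3, 49.0, 51.0 and 52.1 after ETS. In obese tumors it measured 30.6, 47.2, 54.6 and 40.1 CPM before therapy and 118, 96.1, 92.3 and 87.5 CPM after ETS. The obese tumors after ETS stood above every other tumor, while the lean groups overlapped. The log2 difference after ETS was 1.19 in obese tumors (SE 0.16, adjusted p = 7.88e-05) and 0.31 in lean tumors (SE 0.15, adjusted p = 0.114), which did not pass.

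The response of Cpt1a differed between hosts by -0.88 on the log2 scale, lean minus obese (SE 0.22, 95% confidence interval -1.35 to -0.41, adjusted p = 0.0127, with 0.00144 to 0.122 over the alternatives), and it was the 1 gene of the 10 that passed that test. Over all tested genes 6.35% were called higher and 10.1% lower in this difference, so that 1 call in 10 is near the background. After ETS, Cpt1a was 1.82-fold higher in obese than in lean tumors (log2 difference 0.87, SE 0.16, adjusted p = 0.0105, with 2.46e-05 to 0.072 over the alternatives), again the only 1 of the 10, where 3.28% of all tested genes were called higher and 2.3% lower. Before therapy the hosts differed by -0.015 on the log2 scale (95% confidence interval -0.34 to 0.31, adjusted p = 0.956). Both calls on Cpt1a held without any single tumor. The difference between the responses was -0.87 (adjusted p = 0.122) without the 5 tumors with muscle RNA and -0.79 (adjusted p = 0.0954) without the 4 with adipocyte RNA. The obese tumor 4 that remained after ETS had 40.1 TPM of Cpt1a, with Adipoq at 0.216 TPM but an adipocyte marker sum of 191.5 TPM, above all lean tumors. For the difference between hosts, 7 of 8 macrophage, 5 of 5 fibroblast and 3 of 4 endothelial markers were called in the same direction as Cpt1a, and their part in its value was not tested.

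Cpt1c, the paralog best known from the brain, where it sits in the endoplasmic reticulum and has little transferase activity, changed most (chr7:44958483-44974880). It measured 23.7, 23.9, 19.1 and 22.1 CPM in lean tumors before therapy and 86.0, 108, 73.5 and 80.4 CPM after ETS. In obese tumors it went from 26.9, 23.3, 19.7 and 21.9 CPM to 96.5, 77.4, 58.9 and 55.8 CPM. In both hosts every tumor after ETS stood above every tumor before therapy. The log2 differences were 1.97 (SE 0.17, adjusted p = 2.06e-06) and 1.65 (SE 0.17, adjusted p = 1.89e-05), and they differed between hosts by 0.32 (95% confidence interval -0.18 to 0.81, adjusted p = 0.388). Cpt1c stayed past the threshold in both hosts under every alternative run, including without the tumors with muscle or adipocyte RNA. Its exons share 366 bases with an antisense transcript, 6530437J22Rik, and whether the counting used the strand is not stated.

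**Figure D2:**
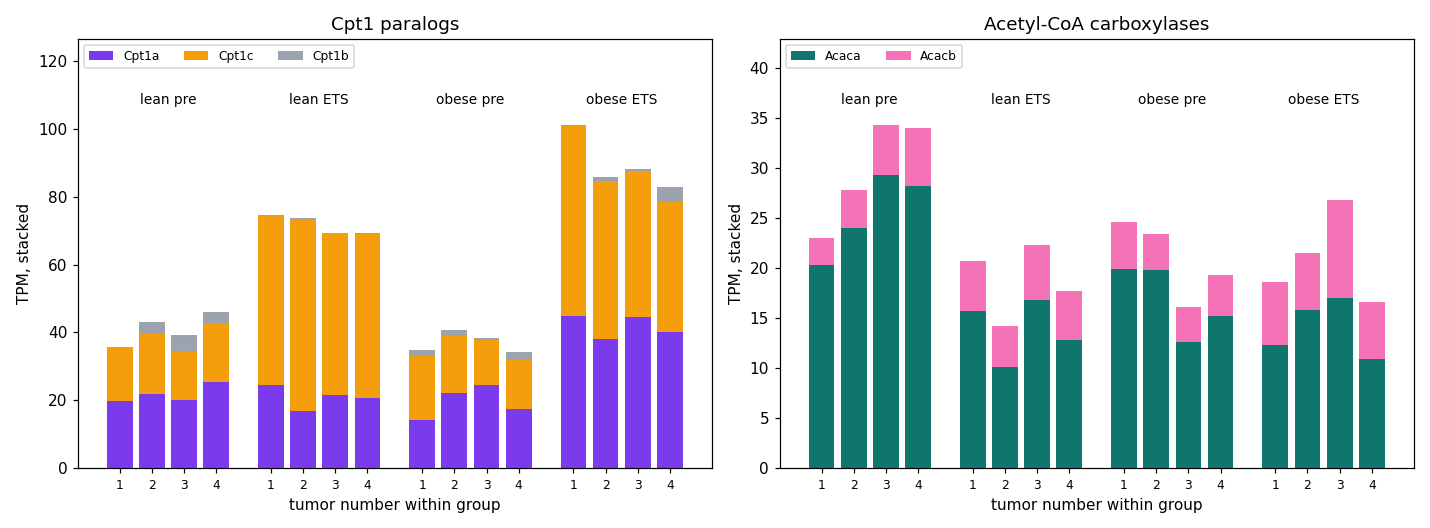
TPM (y axis) of Cpt1a, Cpt1c and Cpt1b (left) and of Acaca and Acacb (right), stacked for each tumor (x axis, numbered within its group). After ETS the Cpt1 stacks rise in both hosts, mostly through Cpt1c in lean tumors and through Cpt1a and Cpt1c together in obese tumors, and Acacb takes a larger share of the carboxylase stacks.

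The makeup of the Cpt1 transcripts also moved. The summed level of the 3 paralogs was 41.0 ± 4.52 TPM (SD, n = 4) before therapy and 71.7 ± 2.75 TPM after ETS in lean tumors, and 37.0 ± 2.98 and 89.5 ± 8.07 TPM in obese tumors. Cpt1c made up 36.9 to 44.7% of that sum in lean tumors before therapy and 67.1 to 77.0% after ETS. In obese tumors its share was 33.9 to 54.0% before therapy and 46.1 to 55.3% after ETS, and these ranges overlapped. Cpt1a made up 50.6 to 55.4% and then 22.9 to 32.7% in lean tumors, and 40.3 to 64.4% and then 44.3 to 50.4% in obese tumors. The shares describe the levels above and were not tested. In raw reads, which are not per length, the share of Cpt1c lay between 29.0 and 34.9% in lean tumors before therapy and between 57.1 and 68.8% after ETS.

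Cpt1b is the form of heart and skeletal muscle, and its values were examined beside the muscle RNA in the samples (chr15:89416405-89425862). It had 11, 316, 376 and 275 reads in lean tumors before therapy and 14, 6, 9 and 43 after ETS. In obese tumors it had 141, 131, 59 and 188 reads before therapy and 34, 107, 55 and 384 after ETS. Lean tumor 1 before therapy lay among the lean tumors after ETS, so these groups overlapped. The log2 difference in lean tumors was -3.55 (SE 0.94, adjusted p = 0.00728). The obese value was 0.085 (95% confidence interval -1.67 to 1.84, adjusted p = 0.952). The difference between hosts, -3.63 (SE 1.24, adjusted p = 0.0566), did not pass, though it passed by DESeq2 and without lean tumor 1 before therapy, lean tumor 4 after ETS, or obese tumor 1 or 3 after ETS, at adjusted p-values of 0.0259, 0.0132, 0.0362, 0.0405 and 0.0462. Without obese tumor 4 after ETS the value was -2.56 and the obese effect was -0.999. With the tumors holding adipocyte RNA left out, which kept only that obese tumor after ETS, the difference between hosts was -5.05.

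The level of Cpt1b and the muscle markers did not order the tumors alike over the whole series. Lean tumors 1 and 2 after ETS, with Acta1 at 108 and 81.1 TPM, had 0.136 and 0.0512 TPM of Cpt1b. Lean tumor 3 before therapy, with Acta1 at 0, had 4.61 TPM, and obese tumor 4 after ETS, also with Acta1 at 0, had 4.59 TPM. These tumors without Acta1 held the most Cpt1b of their groups. Only among the remaining tumors of these groups did more Cpt1b go with muscle RNA. Lean tumors 2 and 4 before therapy, with Acta1 at 70.4 and 19.4 TPM, had 3.68 and 3.32 TPM of Cpt1b against 0.117 TPM in tumor 1. Obese tumor 2 after ETS, with Acta1 at 162 TPM, had 1.29 TPM of Cpt1b against 0.338 and 0.625 TPM in tumors 1 and 3. Without the 5 tumors with muscle RNA the lean difference was -2.69 (adjusted p = 0.264).

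Cpt1b shares 2744 exonic bases with Gm44502, a gene annotated as protein-coding on the same strand, and a counter can give the reads of these bases to either of them. Gm44502 had 176, 20, 78 and 109 reads before therapy and 85, 64, 107 and 122 after ETS in lean tumors, 5, 68, 412 and 4 in obese tumors before therapy, and 155, 20, 496 and 0 after ETS. In 3 of the 4 groups the tumor with the most Gm44502 reads was the lowest or next to lowest in Cpt1b: lean tumor 1 before therapy had 176 and 11, obese tumor 3 before therapy 412 and 59, and obese tumor 3 after ETS 496 and 55. In lean tumors after ETS it was otherwise, since tumor 2 had the fewest reads of both genes, 64 and 6, and tumor 4 the most, 122 and 43. With both genes summed, the tumors had 3.11, 5.16, 7.02 and 6.10 CPM in lean mice before therapy and 1.76, 1.398, 2.08 and 2.89 CPM after ETS, and these groups no longer overlapped. The log2 difference of the sum in lean tumors was -1.39 (adjusted p = 0.0125), less than that of Cpt1b alone, and the obese value was 0.24 (adjusted p = 0.667). The size of the fall in Cpt1b is uncertain, since its value moved with the treatment of this overlap, and how the reads were divided was not tested.

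**Figure D3:**
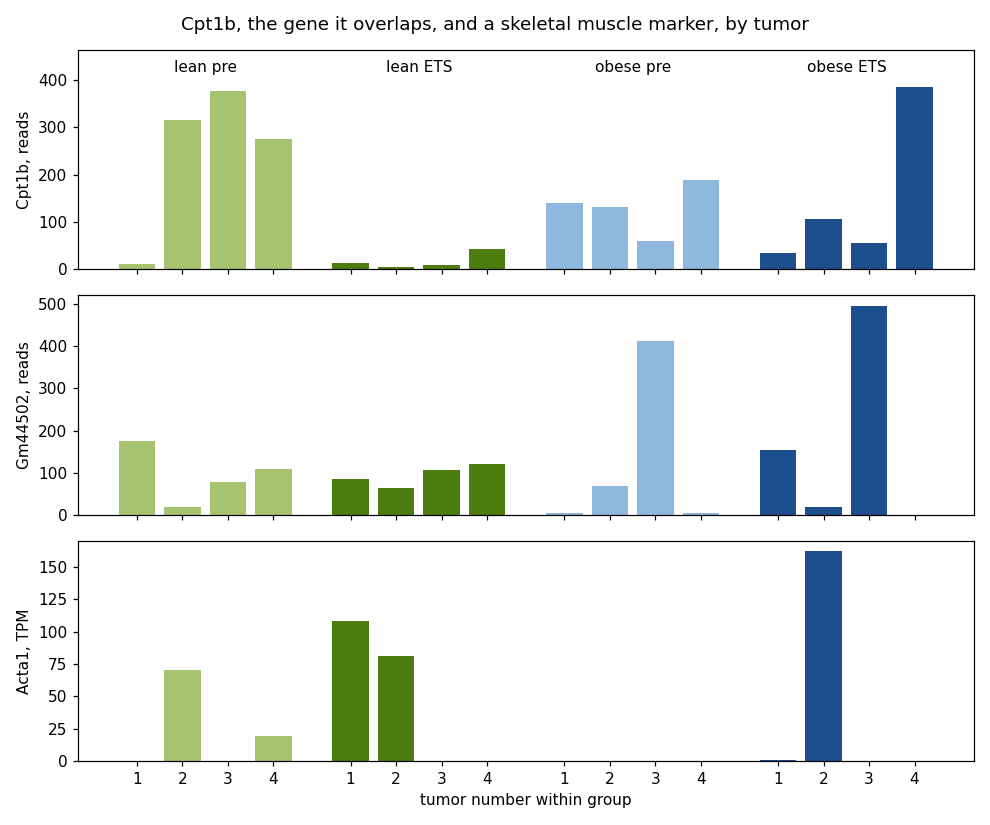
Reads of Cpt1b (top), reads of the overlapping gene Gm44502 (middle) and TPM of the skeletal muscle gene Acta1 (bottom) on linear y axes for each tumor (x axis, numbered within its group). The highest bars of Cpt1b do not sit above the highest bars of Acta1, and the 3 tumors with 176, 412 and 496 reads of Gm44502 have the lowest or next to lowest bar of Cpt1b in their group.

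The carriers behind the outer membrane rose in both hosts. Slc25a20, which exchanges acylcarnitine for carnitine across the inner membrane, measured 35.8, 30.4, 24.9 and 27.4 CPM in lean tumors before therapy and 56.1, 49.4, 39.9 and 41.5 CPM after ETS. Its obese tumors measured 36.8, 34.6, 35.9 and 31.0 CPM and then 57.5, 55.5, 47.9 and 42.8 CPM. The groups before and after ETS did not overlap in either host, and the log2 differences were 0.66 (SE 0.13, adjusted p = 0.00128) and 0.56 (SE 0.13, adjusted p = 0.00427). The hosts differed in this response by 0.10 (95% confidence interval -0.30 to 0.50). Cpt2, which completes the shuttle on the inner side, measured 29.4, 25.7, 24.4 and 28.5 CPM in lean tumors before therapy and 42.6, 39.0, 37.4 and 31.2 CPM after ETS. Its obese tumors measured 33.6, 38.1, 31.1 and 32.7 CPM and then 42.5, 42.7, 41.8 and 37.2 CPM, where the ranges overlapped by the lowest tumor after ETS. Cpt2 rose by 0.48 in lean (SE 0.10, adjusted p = 0.00181) and by 0.28 in obese tumors (SE 0.10, adjusted p = 0.0404). The call in obese tumors was lost without any of 6 tumors, at adjusted p-values up to 0.111 (without obese tumor 3 before therapy), as it was with other filters on low counts, at 0.0566 and 0.0766. It was also lost on log2(TPM + 1) (0.18, adjusted p = 0.192, limma) and without the tumors with muscle RNA (0.27, adjusted p = 0.101). Without the tumors with adipocyte RNA the obese value was 0.20.

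Cpt2 was also the only 1 of the 10 that passed edgeR's test between hosts before therapy, with Acaca and Crat near the threshold. It was 1.26-fold higher in obese tumors (log2 difference 0.33, SE 0.10, adjusted p = 0.0252), where 13.5% of all tested genes were called higher and 12.9% lower. That call was lost without lean tumor 2 or 3 or without obese tumor 2, at adjusted p-values of 0.0685, 0.0771 and 0.0784. It was also lost on log2(TPM + 1) and log2(TPM + 0.1), at adjusted p-values of 0.211 and 0.216 (limma). Without the tumors with muscle RNA the adjusted p was 0.154. After ETS the hosts differed in Cpt2 by 0.13 (95% confidence interval -0.09 to 0.34, adjusted p = 0.451).

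Crat and Crot act on shorter chains. Crat, which makes acetylcarnitine in mitochondria and peroxisomes and so buffers acetyl-CoA, measured 40.1, 31.4, 24.1 and 31.4 CPM in lean tumors before therapy and 57.2, 57.9, 45.8 and 40.5 CPM after ETS, a log2 difference of 0.67 (SE 0.16, adjusted p = 0.00381). Its obese tumors measured 48.8, 46.96, 37.9 and 36.7 CPM and then 63.6, 59.8, 53.8 and 47.5 CPM, a difference of 0.40 (SE 0.16, adjusted p = 0.0553). The lean groups did not overlap, the obese groups overlapped by a single tumor on each side, and the obese value passed in 12 of 27 alternatives, among them DESeq2, the exact test and 7 of 16 fits without a single tumor, at adjusted p-values of 0.00428 to 0.61 over all of them. Crot, the peroxisomal enzyme that hands medium-chain products of peroxisomal oxidation to mitochondria, measured 36.8, 35.0, 39.3 and 38.1 CPM in lean tumors before therapy and 59.8, 60.6, 51.3 and 50.5 CPM after ETS. In obese tumors it measured 50.7, 48.0, 42.4 and 36.3 CPM and then 52.9, 55.4, 46.1 and 41.1 CPM. Only the lean groups of Crot were apart, with a log2 difference of 0.57 (SE 0.11, adjusted p = 0.00117) against 0.14 (SE 0.11, adjusted p = 0.345) in obese tumors. The difference between these responses, 0.43 (SE 0.16, 95% confidence interval 0.09 to 0.78, adjusted p = 0.08), did not pass over all genes, and it did pass without obese tumor 4 before therapy (0.52, adjusted p = 0.0361). Exons of Crat and Crot share bases with transcripts on the other strand, 411 with Gm16323 and 166 with Gm37153, and Crat shares 59 with its neighbour Dolpp1.

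**Figure D4:**
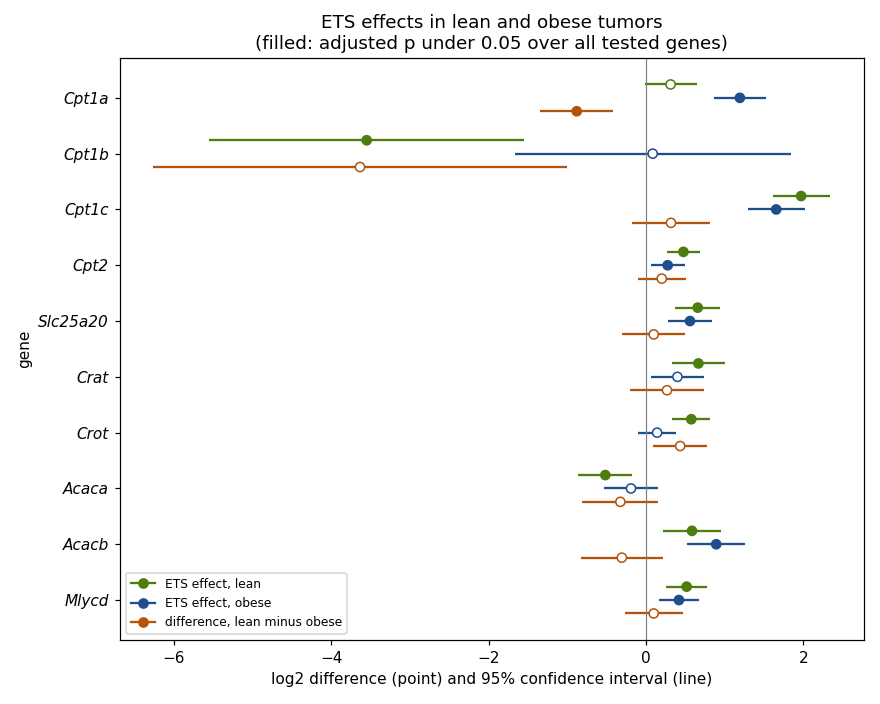
Log2 difference after ETS (x axis; points, with lines for the 95% confidence interval) of each of the 10 genes (y axis) in lean tumors, in obese tumors, and lean minus obese. Filled points passed an adjusted p of 0.05; among the 10 differences between hosts only that of Cpt1a, at -0.88, is filled, and the line of Cpt1b is the longest.

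On the malonyl-CoA side, the carboxylases moved in opposite directions in lean tumors, and in obese tumors only Acacb passed the test. Acaca, the cytosolic enzyme that feeds fatty acid synthesis, measured 117, 121, 140.3 and 142 CPM in lean tumors before therapy and 105, 75.0, 100.4 and 83.1 CPM after ETS. It fell by 0.52 on the log2 scale in lean tumors (SE 0.16, adjusted p = 0.0172), with no overlap between the groups, and the adjusted p was 0.0539 without lean tumor 2 after ETS. Its obese tumors measured 111, 108, 72.2 and 89.2 CPM and then 83.6, 98.0, 91.3 and 60.4 CPM, a difference of -0.19 (95% confidence interval -0.53 to 0.15, adjusted p = 0.364). Before therapy Acaca stood at -0.45 in obese against lean tumors (SE 0.16, adjusted p = 0.0501), just outside the threshold, without overlap of the groups, and it passed in 14 of 27 alternatives, among them DESeq2 (adjusted p = 0.0308), the exact test (adjusted p = 0.0326) and limma on log2(TPM + 1) (adjusted p = 0.0382), with a range of 0.0219 to 0.187. Acacb, the carboxylase at the outer mitochondrial membrane that makes the malonyl-CoA next to carnitine palmitoyltransferase 1, measured 12.3, 14.8, 18.2 and 22.1 CPM in lean tumors before therapy and 26.7, 24.3, 26.2 and 24.0 CPM after ETS. Its obese tumors measured 19.8, 14.9, 15.3 and 18.5 CPM and then 33.6, 29.5, 39.7 and 24.1 CPM. Acacb rose in both hosts without overlap, by 0.58 in lean (SE 0.17, adjusted p = 0.0138) and by 0.89 in obese tumors (SE 0.17, adjusted p = 0.00127).

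Per length, Acacb made up 11.7 to 17.0% of the TPM of both carboxylases in lean tumors before therapy and 24.3 to 29.0% after ETS, and 15.5 to 21.8% and 26.6 to 36.4% in obese tumors. The summed level of both was 29.8 ± 5.43 TPM (SD, n = 4) and 18.8 ± 3.55 TPM in lean tumors, and 20.9 ± 3.90 and 20.9 ± 4.44 TPM in obese tumors. Mlycd, which destroys malonyl-CoA, measured 18.2, 16.9, 14.8 and 14.5 CPM in lean tumors before therapy and 22.3, 27.0, 21.6 and 21.2 CPM after ETS. Its obese tumors measured 18.5, 16.03, 13.8 and 13.7 CPM and then 20.8, 22.9, 20.4 and 18.7 CPM. In both hosts the groups were apart, and the log2 differences were 0.52 (SE 0.12, adjusted p = 0.00363) and 0.42 (SE 0.12, adjusted p = 0.0139). The obese call of Mlycd was lost without the tumors with muscle RNA (0.38, adjusted p = 0.062, edgeR). Without those with adipocyte RNA, which kept only obese tumor 4 after ETS, the obese value was 0.30.

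These directions are relative to the scaling. On log2(TPM + 1) the median difference of all tested genes in lean tumors was -0.275, against -0.015 with TMM. The share of calls that were higher went from 48.0% to 15.7%. With limma on log2(TPM + 1), 4 of the 10 genes passed in lean tumors, Cpt1c at 1.58 and Slc25a20 at 0.27 being higher and Acaca at -0.84 and Cpt1b at -1.52 lower. Cpt2, Crat, Crot, Acacb and Mlycd were then at 0.09 to 0.30, which is 0.37 to 0.57 above the median gene on that scale, and Cpt1a was at -0.06. In obese tumors 5 passed, among them Cpt1a at 1.08 and Cpt1c at 1.48, and the share of higher calls was 43.6% against 52.8%. For the difference between hosts that share was 9.24% against 38.7%, before therapy 29.0% against 51.0% and after ETS 83.8% against 58.7%, and Cpt1a kept its call for the difference at -1.14 (adjusted p = 0.00185, limma).

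Genes around the shuttle were taken from 6 lists and are given by counts, to be read against the shares of all tested genes, 21% higher and 22.8% lower in the lean host and 21.2% and 19% in the obese host, and 6.35% and 10.1% for the difference. Of 15 enzymes of mitochondrial beta-oxidation, which take over after Cpt2, 10 rose and 0 fell in the lean host, 0 also at an unadjusted p under 0.05 (median log2 difference 0.66), and 7 rose and 1 fell in the obese host (median 0.31). For the difference between hosts 1 of the 15 was called, Hadh, the dehydrogenase of short and medium chains, which measured 54.4 and 68.6 CPM in lean and 72.1 and 63.2 CPM in obese tumors before and after ETS (0.53 lean minus obese, SE 0.12, adjusted p = 0.0073). Acads, Etfa and Eci2 had the next lowest adjusted p-values for that difference, 0.0729, 0.0779 and 0.0982. Of the 7 synthetases that make the acyl-CoA for the shuttle, the lean host had 1 that rose and 1 that fell, and the obese host 4 and 1 (medians 0.014 and 0.43). The difference passed for 3 of them, all higher in the obese response: Acsl5 at -0.77 (adjusted p = 0.0176), Acsl1 at -0.59 (adjusted p = 0.0303) and the fatty acid transporter Slc27a1 at -0.67 (adjusted p = 0.0386).

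**Figure D5:**
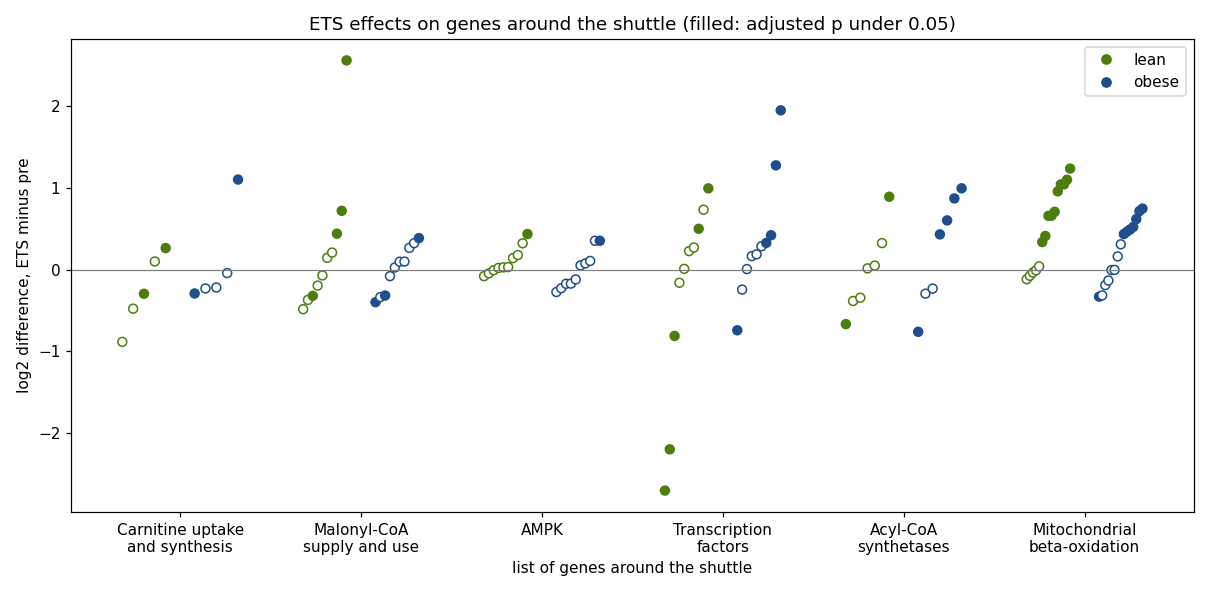
Log2 difference after ETS (y axis) of the tested genes of 6 lists around the shuttle (x axis), in lean tumors and in obese tumors, with filled points at an adjusted p under 0.05. In the beta-oxidation list 10 of 15 lean points and 8 of 15 obese points are filled, whereas in the AMPK list 1 of 10 is filled in each host.

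Of the 8 genes of carnitine uptake and synthesis, 5 were tested, and 1 rose and 1 fell in each host. The transporter Slc22a4 passed for the difference between hosts (-1.98, SE 0.50, adjusted p = 0.0128), at means of 0.526 and 0.284 CPM in lean and 0.458 and 0.99 CPM in obese tumors before and after ETS. All 10 genes that supply or use malonyl-CoA were tested. After ETS the lean host had 3 that rose and 1 that fell, and the obese host 1 and 2. Thrsp, a lipogenic nuclear protein, went from 0.924 to 5.44 CPM in lean and from 2.07 to 2.58 CPM in obese tumors, a difference of 2.23 between hosts (SE 0.51, adjusted p = 0.00743). Slc25a1, the carrier that exports citrate from mitochondria for acetyl-CoA synthesis, went from 77.7 to 128 CPM in lean and from 112 to 114 CPM in obese tumors, a difference of 0.69 (SE 0.20, adjusted p = 0.0263). Among 10 tested genes of AMPK, the kinase that turns the carboxylases off, and of its upstream kinases, Prkag1 rose in lean tumors (0.43, adjusted p = 0.0034) and Camkk2 in obese tumors (0.35, adjusted p = 0.0296), and 0 fell by edgeR's test in either host, against 0 and 2 at an unadjusted p under 0.05. At mRNA level these lists hold no information on phosphorylation.

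Of 12 transcription factors and coactivators known to act on these genes, 10 were tested, with 2 higher and 3 lower after ETS in the lean host, and 4 higher and 1 lower in the obese host. Pparg, the receptor of fat cells and macrophages, went from 4.07 to 0.887 CPM in lean and from 1.17 to 2.82 CPM in obese tumors, a difference of -3.47 (SE 0.59, adjusted p = 0.0011). Nr1h3, the liver X receptor alpha found in macrophages, went from 6.78 to 1.04 CPM and from 0.559 to 2.14 CPM, a difference of -4.65 (SE 0.91, adjusted p = 0.00266). Both moved in the direction of the macrophage markers in each host, and the part of those cells was not tested. Esrra, the estrogen-related receptor alpha that drives mitochondrial genes, rose in both hosts, by 0.99 in lean (adjusted p = 0.000178) and by 0.42 in obese tumors (adjusted p = 0.0385). Ppard rose in lean tumors by 0.50 (adjusted p = 0.000909) and stood at 0.16 in obese tumors (adjusted p = 0.187). Ppara, the receptor best known for inducing Cpt1a in liver and named after its values were seen, had group means of 0.512 to 0.984 CPM, with log2 differences of 0.73 (adjusted p = 0.0904) and 0.28 (adjusted p = 0.522).

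The 5 tested genes whose log2 CPM was most like that of Cpt1a over the 16 tumors were Angptl2 (Pearson r 0.944), Cyp4b1 (0.920), Lpin3 (0.916), Tmem252 (0.915) and Sdc1 (0.915). Their highest means all lay in obese tumors after ETS, 183 CPM for Angptl2 and 10.1 CPM for Cyp4b1. For Cpt1b they were LOC115487892 (0.908), Gm20300 (0.898), Gtpbp2 (0.890), Rrbp1 (0.886) and Gpr161 (0.882), all with their lowest mean in lean tumors after ETS. The tumors share their groups, so such values follow the group means, and no test was made.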

How the data were processed

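RNA of 16 B16F10 tumors, 4 per group as given by the titles in the labels, was analysed. Per the study's methods and the submitters' processing notes, stranded libraries (paired reads of 101 bases) were aligned to mm10 with HISAT2 2.1.0 and quantified with StringTie 2.1.3b. The authors deposited, per gene, read counts that were not normalized and TPM values (per length and library); 16 columns of FPKM were not used. The strand setting of the counting is not given in the sources used here.

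As in the study's methods, 29568 of 45777 genes with a count under 1 in any tumor were left out and counts were scaled by TMM. Genes were tested with a quasi-likelihood model in edgeR 4.0.16 under R 4.3.3, fitted over all groups and called at an adjusted p under 0.05 (common BCV 0.233), in place of the study's exact test. Log2 CPM for likeness used a prior count of 2. Alternatives were DESeq2's size factors, DESeq2 1.42.0, the exact test on counts with 1 added, filters on low counts, limma 3.58.1 on log2(TPM + 1) and log2(TPM + 0.1), only the groups compared, a replicate block and each tumor left out. Leaving out tumors with Acta1 at 10 TPM or Adipoq at 5 TPM or more, and adding the reads of Gm44502 to Cpt1b, were chosen after the data were seen. The members, gene lists and markers were chosen with earlier results of these data known. Named genes were all 10 members, at most 4 genes per list by the lowest adjusted p for the difference between hosts (or, with no call there, for the ETS effects), and the 5 genes most like Cpt1a and Cpt1b. Motifs were searched in the 250 bases before each RefSeq start, coordinates are from the GRCm38.p6 gene table and overlaps from GENCODE M21.

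On simulated counts, the test recovered 89 of 95 changes of 4-fold and 53 of 97 of 2-fold in lean tumors with 5 false calls among 15903 genes, and for the difference between hosts 78 and 33 with 1 false call. The least different pair of tumors in a group had a chi-square of 27.1 per degree of freedom, above sampling noise, and all 16 tumors were counted as separate samples.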

Additional observations from a re-analysis of the deposited data

Results flagged for a closer look

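Cpt2 stood at 37.2 CPM in obese tumor 4 after ETS, apart from the other 3 tumors of its group at 41.8 to 42.7 CPM, with a gap past Dixon's 95% critical value for 4 values. It was 1 such case among 40 groups of values tested, and chance gives about 1 in 20. The same tumor had the lowest Adipoq level of the obese tumors after ETS, 0.216 TPM, and the highest fibroblast sum.

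The response of Cpt1a to ETS differed between the hosts by -0.88 on the log2 scale, lean minus obese (adjusted p = 0.0127, edgeR's quasi-likelihood test), the only such difference among the 10 genes. Over all tested genes 6.35% were called higher and 10.1% lower, so that 1 call in 10 is near the background. The call was lost without the tumors with muscle RNA (-0.87, adjusted p = 0.122, edgeR). Without those with adipocyte RNA the value was -0.79. All 4 obese tumors after ETS, at 87.5 to 118 CPM, stood above all obese tumors before therapy, at 30.6 to 54.6 CPM, while the lean groups overlapped.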

How the results depend on the processing

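Of the 10 genes, 9 passed the test in lean tumors after ETS, 4 on log2(TPM + 1), 4 on log2(TPM + 0.1) and 1 without the tumors with muscle RNA, with 8 to 9 when single tumors were left out. Without the tumors with muscle RNA calls over all genes fell as well, from 7099 to 1722. In obese tumors 6 passed, 2 without the tumors with adipocyte RNA and 5 to 7 without single tumors. The difference between hosts had 1, with 2 by DESeq2 and with the replicate block, 0 without the tumors with muscle RNA and 1 to 2 without single tumors. Before therapy the hosts differed in 1, with 2 by DESeq2's size factors, by edgeR's filter on low counts and over only the groups compared, 3 by the exact test, by DESeq2 and with the replicate block, 0 without the tumors with muscle RNA and 0 to 3 without single tumors. After ETS they differed in 1, with 2 by the exact test and by DESeq2, 0 without the tumors with muscle RNA and 1 to 2 without single tumors. Other settings left these counts within 1.5 times, though an equal count could hold another gene. Before therapy on log2(TPM + 1), Acaca passed (adjusted p = 0.0382, limma) and Cpt2 did not (adjusted p = 0.211). Leaving out the tumors with adipocyte RNA left only obese tumor 4 after ETS. The difference between hosts was then -0.79 for Cpt1a and -5.05 for Cpt1b, and the host difference after ETS was 0.71 and 4.37. The exact test and the fit over only the groups compared could not give the difference between hosts.

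Values that turned sign were not called in either fit, and the cause was not tested. On log2(TPM + 1) and log2(TPM + 0.1), Cpt1a was at -0.062 and -0.065 in lean tumors and Cpt1b at -0.17 and -0.43 in obese tumors. On these scales the difference between hosts was -0.087 and -0.089 for Cpt2, -0.18 and -0.18 for Slc25a20, -0.095 and -0.097 for Crat, and -0.19 and -0.20 for Mlycd. Before therapy Cpt1c was at -0.056 and -0.060 and Acacb at -0.063 and -0.068, and after ETS Acaca was at 0.020 and 0.021 and Mlycd at 0.0059 and 0.0061. Without the tumors with adipocyte RNA, Crot was at -0.059 in obese tumors, the difference between hosts was 0.041 for Acaca and 0.12 for Acacb, and after ETS the hosts differed by -0.11 in Slc25a20, -0.067 in Crat and -0.054 in Acacb. Without the tumors with muscle RNA the difference between hosts was -0.092 for Slc25a20, and Cpt1a before therapy was at 0.061, as it was at 0.0099 with edgeR's filter. When single tumors were left out, Cpt1b in obese tumors ran from -0.999 to 0.42, the difference between hosts from -0.032 to 0.20 for Slc25a20 and from -0.0012 to 0.16 for Mlycd, the values before therapy from -0.15 to 0.12 for Cpt1a, -0.038 to 0.11 for Cpt1c, -0.10 to 0.18 for Acacb and -0.15 to 0.0082 for Mlycd, and Acaca after ETS from -0.21 to 0.0057.

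Whether the replicate numbers pair the tumors could not be settled, and the main fit did not use them. Of 24 correlations between tumors of the same number, 11 were over 0.1, with a range of -0.11 to 0.45, and 5 of 16 tumors correlated best with their own number. With the replicate block, Cpt1b in obese tumors was at -0.45, and the added calls were Crat in obese tumors, Crot for the difference between hosts, and Slc25a20 and Crat before therapy.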

Other observations

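Before therapy, the hosts were also compared over the lists around the shuttle. Of 15 enzymes of mitochondrial beta-oxidation, 8 were called higher and 0 lower by edgeR's quasi-likelihood test, with 0 lower also at an unadjusted p under 0.05 and a median log2 difference of 0.38 against 0.02 over all tested genes. Of the 5 tested genes of carnitine uptake and synthesis, 3 were higher and 0 lower (1 lower at an unadjusted p under 0.05), and among the genes around malonyl-CoA 3 of 10 were higher and 2 lower. Over all tested genes 13.5% were called higher and 12.9% lower before therapy, and 3.28% and 2.3% after ETS. After ETS, 1 of the 15 enzymes was called higher and 0 lower in obese against lean tumors, and among the 7 synthetases 2 were higher and 0 lower, where 2 enzymes and 1 synthetase were lower at an unadjusted p under 0.05. These values share their groups with the ETS effects and are no independent evidence of them.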
